A study of Mus musculus with 6 samples.

Results

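The genes described here are 53 ribosome biogenesis factors, chosen by name as RNA polymerase I components and nucleolar proteins that process precursor ribosomal RNA (rRNA), with earlier results of these data known, out of 24190 genes in the count table. Their transcripts were measured by poly(A) RNA sequencing in a single line of mouse tumor organoids, MTO54, which is of AKP genotype and was derived from a tumor of a genetically engineered mouse. Single cells were seeded in basement membrane extract, and 2 days later 3 cultures received Folfiri and 3 control cultures received fresh complete stem cell medium, in each case for 2 days, although a legend of the study gives 4 days. Folfiri combined 5FU, listed at 50 μg/μl, with SN38, the active form of irinotecan, at 100 nM. The unit given for 5FU makes an unusually high concentration and is in doubt. Both groups carried the same genotype, and the comparison addresses what chemotherapy does to the transcripts of these organoids.

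Ribosome production starts in the nucleolus, where RNA polymerase I copies the ribosomal DNA into a long precursor rRNA. The precursor is folded, chemically modified and cut while assembly factors join it to ribosomal proteins, first in the small subunit (SSU) processome and then in separate small and large subunit (LSU) particles that mature in the nucleoplasm and cytoplasm. 5FU is built into RNA and is known to disturb the processing of precursor rRNA, and SN38 inhibits topoisomerase I, an enzyme that relieves the twist of transcribed DNA. The rRNA itself was not analysed here.

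Counts per sample ranged from 22103591 to 30098210, and the members had between 58 counts (Rrp12) and 48324 counts (Ncl) in a sample. All 53 members passed the filter on low counts and were among the 14692 genes tested. The 8 epithelial markers (Epcam, Cdh1 and keratins among them) all had counts and summed to 5729 to 6636 CPM (counts scaled to the effective library size) in controls and 4644 to 4814 CPM after Folfiri. The 6 fibroblast markers summed to 1.08 to 1.44 and 2.03 to 2.45 CPM, and 5 of the 6 immune markers to 0.514 to 0.612 and 1.27 to 1.47 CPM, with Cd3e not analysed here and Col3a1 and Pdgfrb at 0 in the controls. Of the 3 endothelial markers, which summed to 72.2 to 124 and 65.4 to 76.1 CPM, nearly all of the signal came from Cdh5, Pecam1 stood at 0.470 and 0.458 CPM, and Kdr was at 0 in the controls. The part of these markers in the results was not tested. Control replicate 1 stood apart from the other control cultures. It held the highest control level for 46 of the 53 members, whereas it was the highest control for 43.8% of all genes tested, and its chi-square per degree of freedom over all genes was 25.3 and 23.9 against the other controls, which differed from each other by 4.03. Folfiri replicate 3 likewise stood apart in its group, at 13.3 and 12.8 against the other Folfiri cultures, which differed from each other by 3.76.

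The promoters of the members are shown for the short sequences that transcription factors of growth genes are known to bind. The RefSeq promoter set used here, on build GRCm38.p6, held 46 of the 53 members. Each promoter had 300 bases, 250 before and 50 after the transcription start. The E-box CACGTG, which Myc and its partner Max bind, was present in at least 1 promoter of 11 of these 46 genes (23.9%), of 8.09% of all 27025 genes with a promoter and of 11.5% of the 10473 such genes that were tested. The 12 matches are printed as windows of 30 bases on the strand of the gene, with the motif in capitals, because the Myc transcript was compared alongside the members. The motif reads the same on both strands.
Rrn3 (chr16:13780472-13780501, + strand): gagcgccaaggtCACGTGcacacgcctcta
Rrn3 (chr16:13780639-13780668, + strand): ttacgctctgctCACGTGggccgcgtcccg
Utp4 (chr8:106893643-106893672, + strand): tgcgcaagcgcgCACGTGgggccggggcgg
Wdr43 (chr17:71616220-71616249, + strand): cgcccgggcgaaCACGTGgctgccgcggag
Utp18 (chr11:93885769-93885798, - strand): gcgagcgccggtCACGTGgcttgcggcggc
Imp4 (chr1:34439696-34439725, + strand): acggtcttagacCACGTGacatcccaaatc
Utp20 (chr10:88826765-88826794, - strand): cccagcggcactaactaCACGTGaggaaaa
Tsr1 (chr11:74898092-74898121, + strand): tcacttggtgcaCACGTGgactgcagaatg
Ltv1 (chr10:13193092-13193121, - strand): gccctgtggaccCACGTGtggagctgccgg
Pes1 (chr11:3963965-3963994, + strand): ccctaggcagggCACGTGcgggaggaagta
Nop2 (chr6:125131811-125131840, + strand): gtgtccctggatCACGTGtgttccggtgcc
Nmd3 (chr3:69721929-69721958, + strand): cgccccttgctaCACGTGtattctttgacc
The matches in Utp4, Wdr43, Utp20, Tsr1, Ltv1 and Pes1 lay after the start. In the 250 bases before the start alone, a window added after the first counts were seen, 5 of 46 members (10.9%) and 9.67% of the tested genes held the motif, so the shares were closer to each other there.

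CCGGAAGT, the sequence that ETS family factors recognize, was found on either strand in 11 of 46 member promoters (23.9%), in 4.31% of all promoter genes and in 9.03% of those tested. Other genes of the pathway held it in 23 of 68 promoters (33.8%) and ribosomal protein genes in 11 of 58 (19.0%). In the 250 bases before the start, 7 of 46 members (15.2%) and 6.73% of the tested genes held it. Pwp2, the member with the largest rise, and Emg1, a member that did not pass the test, both carried it before the start. Their upstream stretches of 250 bases are printed for that contrast, with the motif in capitals and the last base next to the start.
Pwp2 (chr10:78185150-78185399, - strand): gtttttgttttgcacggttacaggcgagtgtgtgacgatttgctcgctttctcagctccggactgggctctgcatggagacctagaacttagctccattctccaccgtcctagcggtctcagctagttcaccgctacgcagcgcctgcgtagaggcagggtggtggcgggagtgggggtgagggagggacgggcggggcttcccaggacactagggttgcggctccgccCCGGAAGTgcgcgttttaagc
Emg1 (chr6:124712179-124712428, - strand): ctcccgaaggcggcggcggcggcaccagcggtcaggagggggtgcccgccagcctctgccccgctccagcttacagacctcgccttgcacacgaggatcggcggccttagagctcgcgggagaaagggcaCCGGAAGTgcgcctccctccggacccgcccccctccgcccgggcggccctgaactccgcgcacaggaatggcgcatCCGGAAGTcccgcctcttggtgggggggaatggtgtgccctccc
Another match in Pwp2 lay after the start. A palindrome of 10 bases with CGCG at its centre, searched on both strands, occurred in 0 of 46 member promoters and in 1.08% of the tested genes. Among ribosomal protein genes, 6 of 58 promoters (10.3%) held this palindrome and 6 of 58 held CACGTG. The median log2 fold change after Folfiri was 1.73 for the members with CACGTG and 1.81 for those without. Motif matches are descriptions of letters in these windows and not evidence of binding.

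After Folfiri, transcripts of most ribosome biogenesis factors rose, in each of the 5 groups of roles. Of the 53 members, 50 were higher, 1 was lower (Npm1) and 2 did not pass the threshold (Imp3 and Emg1) in edgeR's quasi-likelihood test at a Benjamini-Hochberg adjusted p under 0.05 over all genes. Over the 14692 genes tested, 79.1% were called, 40.3% higher and 38.8% lower, so a call in itself was common in this comparison. The median log2 fold change of the members was 1.73, with quartiles of 1.23 and 2.19, against 0.02 over all genes. A rise of at least 1 on the log2 scale was seen in 43 of 53 members and in 19.5% of all genes, and a rise of at least 2 in 17 members and in 6.30% of all genes. Control and Folfiri values did not overlap in 51 members and in 81.4% of all genes. In bulk RNA, fewer cells of a type and less RNA per cell cannot be told apart, and values are relative to the other transcripts of the sample. When libraries were scaled to their totals without TMM factors, the median of all genes was 0.30 and that of the members 2.00, and the excess of the members over all genes was 1.71 with TMM factors and 1.70 with total counts. With total counts, 52 members were higher and 0 lower, where 49.8% of all genes were higher and 28.9% lower, and the share of calls that were higher moved from 51.0% to 63.3%. DESeq2's Wald test called 50 members higher and 1 lower, where it called 65.0% of 18094 genes, 33.5% higher and 31.5% lower. Without control replicate 1, the median of the members was 1.96, with 50 members higher and 1 lower, and without Folfiri replicate 3 it was 1.73 with the same counts. Of the members given with values in every sample, Polr1a, Nop56, Heatr1, Imp4, Nop14, Bop1, Pes1 and Emg1 share 5 to 334 exonic bases with a gene on the opposite strand, whose reads cannot be told apart in these libraries.

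**Figure D1:**
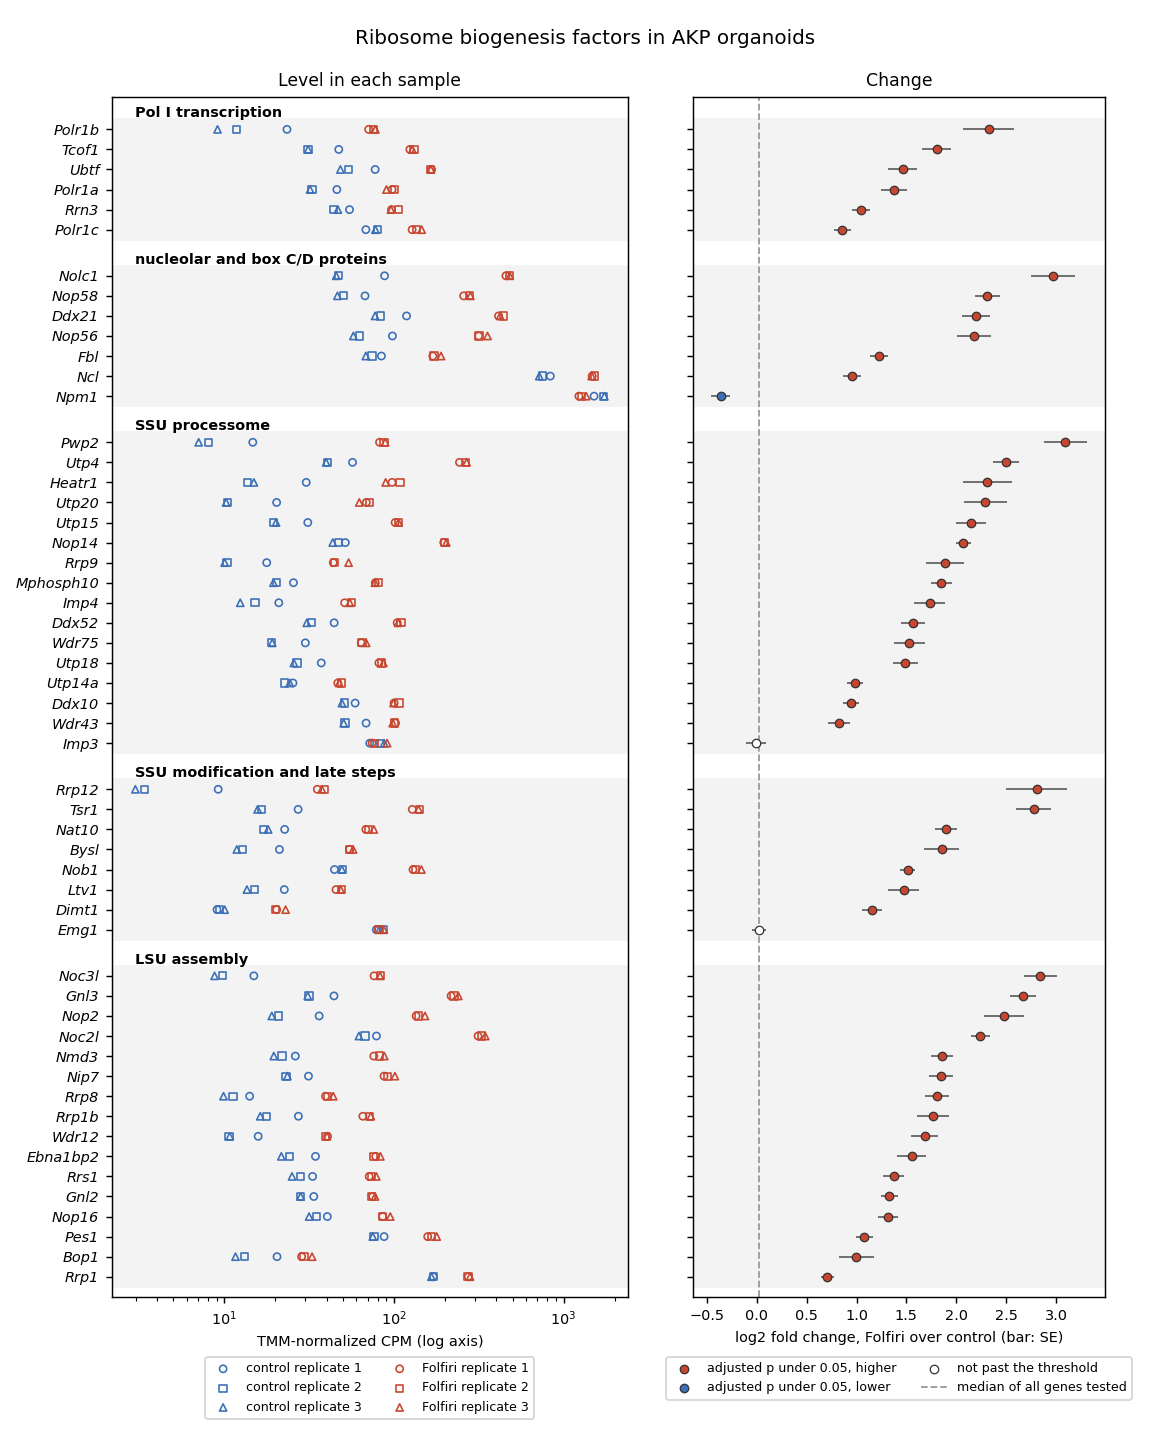
Levels of the 53 ribosome biogenesis factors in each sample as TMM-normalized CPM on a log axis (left; blue, control; red, Folfiri; marker shape, replicate) and log2 fold changes of Folfiri over control with standard errors (right), grouped by role and ordered by fold change. The 50 filled red points lie to the right of the dashed median of all genes at 0.02, Npm1 is the 1 blue point, and Imp3 and Emg1 are open.

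All 6 members that act in RNA polymerase I transcription rose, with a median log2 fold change of 1.42. Polr1a (ENSMUSG00000049553; chromosome 6, 71909053 to 71984935), the largest subunit of the polymerase, was at 46.0, 32.8 and 32.0 CPM in control replicates 1, 2 and 3 and at 97.5, 101 and 90.2 CPM in Folfiri replicates 1, 2 and 3. All Folfiri cultures lay above all controls, and the log2 fold change was 1.38 (SE 0.13, edgeR adjusted p = 2.89e-06). Polr1b (ENSMUSG00000027395; chromosome 2, 129100995 to 129126594), the partner of Polr1a in the catalytic centre, rose most in this group. Its level went from 23.4, 11.8 and 9.10 CPM to 70.9, 76.0 and 77.7 CPM, for a log2 fold change of 2.32 (SE 0.26, edgeR adjusted p = 1.07e-05). Control replicate 1 was clearly the highest control for Polr1b, and without it the log2 fold change was 2.83. Polr1c, which RNA polymerases I and III share, rose least, from 68.2, 79.9 and 77.6 CPM to 128, 136 and 146 CPM, for a log2 fold change of 0.86 (SE 0.08, edgeR adjusted p = 3.80e-06). Here control replicate 1 was the lowest control, unlike in most members.

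The factors that bring the polymerase to the ribosomal DNA rose as well. Rrn3 (ENSMUSG00000022682; chromosome 16, 13780708 to 13814839), which couples RNA polymerase I to its promoter and carries both an E-box pair and an ETS match in its promoter, was at 54.7, 43.8 and 46.7 CPM in controls and 96.6, 107 and 95.9 CPM after Folfiri. Ubtf (ENSMUSG00000020923; chromosome 11, 102304560 to 102319742), the architectural factor of active ribosomal DNA, was at 77.4, 53.7 and 48.3 CPM in controls and 167, 164 and 165 CPM after Folfiri. The groups were separate for both genes, and the 3 Folfiri cultures were nearly equal for Ubtf. The log2 fold change was 1.04 (SE 0.09, edgeR adjusted p = 2.09e-06) for Rrn3. That of Ubtf was 1.46 (SE 0.14, edgeR adjusted p = 4.36e-06). Tcof1, the nucleolar protein treacle that works with RNA polymerase I, had a log2 fold change of 1.80 (SE 0.14, edgeR adjusted p = 8.73e-07).

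Among the 7 nucleolar and box C/D proteins, 6 rose and Npm1 fell. Box C/D particles are small nucleolar ribonucleoproteins that methylate ribose in rRNA, guided by small nucleolar RNAs (snoRNAs). Fbl, their methyltransferase, rose from 84.3, 74.2 and 68.2 CPM to 169, 172 and 189 CPM, for a log2 fold change of 1.23 (SE 0.09, edgeR adjusted p = 4.79e-07). Nop56 (ENSMUSG00000027405; chromosome 2, 130274430 to 130279313), a core protein of the same particle, rose from 97.9, 62.5 and 57.6 CPM to 316, 317 and 356 CPM, for a log2 fold change of 2.18 (SE 0.17, edgeR adjusted p = 8.11e-07). Its partner Nop58 had a log2 fold change of 2.31, so these 3 proteins spanned 1.23 to 2.31, with Fbl the lowest of them. Nolc1 (ENSMUSG00000015176; chromosome 19, 46075863 to 46085530), a chaperone of these particles, rose most in this group and ranked 2 of the 53 members by fold change. It was at 88.0, 47.0 and 45.6 CPM in controls and 457, 482 and 482 CPM after Folfiri, and every Folfiri culture lay far above every control. The log2 fold change was 2.97 (SE 0.22, edgeR adjusted p = 5.00e-07), and the mean level went from 60.2 ± 24.1 to 473 ± 14 CPM (each SD, n = 3). The nucleolar RNA helicase Ddx21 had a log2 fold change of 2.19 (SE 0.14).

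Ncl and Npm1 encode nucleolin and nucleophosmin, both abundant nucleolar proteins, and moved in opposite directions. Ncl (ENSMUSG00000026234; chromosome 1, 86344719 to 86359400) was at 835, 749.8 and 719 CPM in controls and 1475, 1531 and 1466 CPM after Folfiri. Npm1 (ENSMUSG00000057113; chromosome 11, 33152287 to 33163206) was at 1514, 1728 and 1741 CPM in controls and 1232, 1282 and 1359.8 CPM after Folfiri. Folfiri values were all above the controls for Ncl and all below them for Npm1. The log2 fold change of Ncl was 0.96 (SE 0.09, edgeR adjusted p = 2.84e-06). For Npm1 it was -0.36 (SE 0.09, edgeR adjusted p = 0.00439), and with scaling by total counts only it was -0.08 (edgeR adjusted p = 0.25), so the fall of Npm1 depended on the scaling. The ratio of Npm1 to Ncl counts within a sample does not depend on scaling. It was 1.81, 2.31 and 2.42 in controls and 0.836, 0.838 and 0.927 after Folfiri, without overlap (exact two-sided permutation p = 0.1, the smallest that 3 against 3 samples allow). Processed pseudogene copies of Npm1 are known, and how reads with several positions were counted is not stated, so its level is uncertain.

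**Figure D2:**
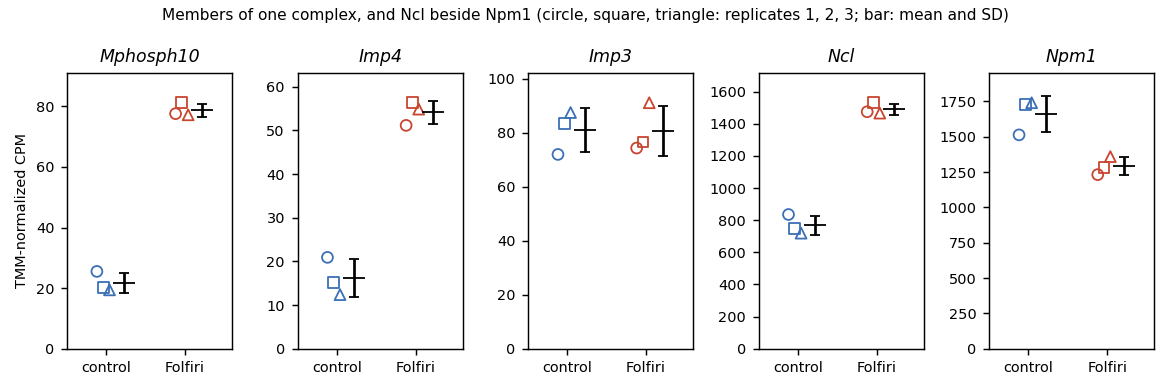
TMM-normalized CPM of the 3 Mpp10 complex proteins (Mphosph10, Imp4, Imp3) and of Ncl and Npm1 in each sample (circle, square and triangle, replicates 1, 2 and 3; bar, mean and SD of 3 samples; linear axes from 0). Mphosph10, Imp4 and Ncl are higher in all Folfiri samples, Npm1 is lower, and Imp3 overlaps.

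The SSU processome packs the young precursor rRNA and carries out its early cuts. Of its 16 members, 15 rose and Imp3 did not pass the test, with a median log2 fold change of 1.79. Pwp2 (ENSMUSG00000032834; chromosome 10, 78170909 to 78185149), a subunit of the UTP-B complex, had the highest rise of all 53 members. It was at 14.7, 8.04 and 7.04 CPM in controls and 82.2, 87.4 and 88.7 CPM after Folfiri, with no overlap and a log2 fold change of 3.10 (SE 0.21, edgeR adjusted p = 3.14e-07). Leaving out each replicate in turn moved this value between 2.90 and 3.51. Heatr1 (ENSMUSG00000050244; chromosome 13, 12395027 to 12440289), a large scaffold of the UTP-A complex, went from 30.4, 13.7 and 14.9 CPM to 97.3, 109 and 89.3 CPM. Utp20 (ENSMUSG00000004356; chromosome 10, 88746607 to 88826804), a large scaffold protein of the processome, went from 20.3, 10.4 and 10.2 CPM to 68.6, 71.8 and 62.4 CPM. In both, control replicate 1 was the highest control and lay below every Folfiri culture. The log2 fold changes were 2.31 (SE 0.25, edgeR adjusted p = 7.68e-06) for Heatr1 and 2.29 (SE 0.22) for Utp20.

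Proteins of 1 complex did not always rise by similar amounts. The members include 5 proteins of UTP-A, a complex that binds the start of the precursor rRNA. Their log2 fold changes ranged from 0.82 for Wdr43 to 2.5 for Utp4, with Wdr75 at 1.53, Utp15 at 2.15 and Heatr1 at 2.31. All 5 were called higher. The Mpp10 complex consists of Mphosph10, Imp4 and Imp3 and helps the U3 snoRNA to pair with the precursor rRNA. Imp4 was at 20.9, 15.2 and 12.4 CPM in controls and 51.1, 56.3 and 54.9 CPM after Folfiri, for a log2 fold change of 1.73 (SE 0.15, edgeR adjusted p = 1.91e-06). Mphosph10 was at 25.5, 20.4 and 19.4 CPM in controls and 77.6, 81.2 and 77.2 CPM after Folfiri, for a log2 fold change of 1.85 (SE 0.10, edgeR adjusted p = 8.64e-08). Imp3 (ENSMUSG00000032288; chromosome 9, 56937475 to 56938398), whose gene has a single exon of 924 bases, was at 71.9, 83.5 and 87.5 CPM in controls and 74.3, 76.6 and 91.1 CPM after Folfiri. Of these 3 genes, the groups overlapped for Imp3, whose log2 fold change of -0.0046 (SE 0.10, edgeR adjusted p = 0.968) changed its sign in 6 of the alternative fits and was 0.28 with total counts (edgeR adjusted p = 0.0177). Counts of Imp4 per count of Imp3 were 0.291, 0.181 and 0.142 in controls and 0.688, 0.736 and 0.602 after Folfiri. Those of Mphosph10 were 0.355, 0.244 and 0.222 in controls and 1.04, 1.06 and 0.848 after Folfiri. Neither ratio overlapped between groups (exact two-sided permutation p = 0.1 each, the smallest possible), and neither depends on the scaling. Imp4 and Mphosph10 were named after their values were seen. The ratios thus restate the difference in fold change and are not a separate test of it.

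The remaining processome members rose over a range of 0.94 to 2.07. The DEAD-box RNA helicases Ddx10 and Ddx52 had log2 fold changes of 0.94 and 1.57. Utp14a, an activator of the processome's helicase, stood at 0.99, the UTP-B subunit Utp18 at 1.49, and the U3 particle protein Rrp9 at 1.89. Nop14, at 2.07 (SE 0.08), had the lowest adjusted p of all members, 7.12e-09 in the edgeR test, and its controls differed little from each other, at 51.6, 47.1 and 43.5 CPM, against 197, 199 and 203 CPM after Folfiri.

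Later steps of the small subunit include base modification, export and the final cut of its rRNA. Of these 8 members, 7 rose and Emg1 did not pass the test, with a median log2 fold change of 1.68. Rrp12 (ENSMUSG00000035049; chromosome 19, 41862851 to 41896173), which takes part in the export of the small subunit, had the lowest count of any member in a control sample. It rose from 9.18, 3.36 and 2.98 CPM to 35.3, 39.1 and 37.5 CPM, for a log2 fold change of 2.81 (SE 0.31, edgeR adjusted p = 9.35e-06), which lay between 2.55 and 3.55 when each replicate was left out, highest without control replicate 1. Nob1 (ENSMUSG00000003848; chromosome 8, 107412486 to 107425051), the endonuclease that makes the final cut in the cytoplasm, rose from 44.5, 49.6 and 49.3 CPM to 129, 134 and 145 CPM. Control replicate 1 was the lowest control here, and the log2 fold change was 1.51 (SE 0.08, edgeR adjusted p = 4.81e-08). Emg1 (ENSMUSG00000004268; chromosome 6, 124704085 to 124712178), a methyltransferase of small subunit rRNA, was at 78.6, 86.3 and 82.0 CPM in controls and 81.3, 81.5 and 87.0 CPM after Folfiri. Its groups overlapped, at a log2 fold change of 0.017 (SE 0.07, edgeR adjusted p = 0.835), and the sign turned in 3 of the alternative fits. With total counts it was 0.29 (edgeR adjusted p = 0.00241). Emg1 shares 334 exonic bases with Lpcat3 on the opposite strand, Tsr1 1240 with Srr, Dimt1 1229 with Kif2a and Bysl 361 with Ccnd3. A p over the threshold does not show that Emg1 or Imp3 were equal between groups.

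The other enzymes and binding factors of the late small subunit rose. The rRNA acetyltransferase Nat10 had a log2 fold change of 1.89, and the adenine dimethyltransferase Dimt1 one of 1.16. Tsr1 and Ltv1, which hold late particles in an inactive state, stood at 2.78 and 1.47, and Bysl, a binding factor of the maturing subunit, at 1.85. Among the rRNA-modifying enzymes of the list, Emg1 was thus the member with the value nearest to 0.

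All 16 members that build the large subunit rose, with a median log2 fold change of 1.73. Bop1, Pes1 and Wdr12 form the PeBoW complex, which is needed to mature the large subunit rRNA. Bop1 (ENSMUSG00000022557; chromosome 15, 76452989 to 76477277) was at 20.4, 13.1 and 11.6 CPM in controls and 28.5, 29.5 and 32.9 CPM after Folfiri. Pes1 (ENSMUSG00000020430; chromosome 11, 3963975 to 3980004) was at 87.4, 76.1 and 75 CPM in controls and 158, 167 and 179 CPM after Folfiri. Both rose without overlap and by similar amounts, at log2 fold changes of 1.0 (SE 0.17, edgeR adjusted p = 3.24e-04) for Bop1 and 1.08 (SE 0.08) for Pes1. Wdr12 had a log2 fold change of 1.68. The count ratio of Bop1 to Pes1 was 0.234, 0.172 and 0.155 in controls and 0.180, 0.176 and 0.184 after Folfiri, with overlapping groups (exact two-sided permutation p = 1).

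Noc3l (ENSMUSG00000024999; chromosome 19, 38788128 to 38819237), which works with Noc2l in moving large subunit particles through the nucleus, rose most of these 16. It was at 14.9, 9.72 and 8.74 CPM in controls and 76.3, 83.1 and 82.8 CPM after Folfiri, for a log2 fold change of 2.84 (SE 0.16, edgeR adjusted p = 9.59e-08). Rrp1 rose least, from 170.3, 171 and 166 CPM to 274, 273 and 281 CPM, for a log2 fold change of 0.71 (SE 0.06, edgeR adjusted p = 2.49e-06), and the replicates of each group were close together. Nmd3 (ENSMUSG00000027787; chromosome 3, 69721985 to 69756373), the export adaptor of the large subunit, was at 26.2, 21.9 and 19.5 CPM in controls and 76.0, 82.5 and 87.6 CPM after Folfiri, without overlap. Its log2 fold change was 1.86 (SE 0.11, edgeR adjusted p = 1.16e-07). The nucleolar GTPases Gnl3 (nucleostemin) and Gnl2 had log2 fold changes of 2.67 and 1.33. Values of 2.48 for the rRNA methyltransferase Nop2 and 1.81 for the base methyltransferase Rrp8 were in the same range. The other 6 large subunit assembly factors, Noc2l, Nip7, Rrp1b, Ebna1bp2, Rrs1 and Nop16, rose by between 1.32 (Nop16) and 2.24 (Noc2l) on the log2 scale.

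Per length, counted as CPM per kilobase of annotated exon, Npm1 was the highest member in both groups, at 623 in controls and 485 after Folfiri. The length joins all annotated exons of a gene, 10188 bases for Ncl and 924 for Imp3, so the order of members depends on the annotation. By this measure, Imp3 followed in controls at 87.6 CPM per kilobase and Ncl at 75.4. After Folfiri, Ncl stood at 146, Nolc1 at 119 against 15.2 in controls, and Noc2l at 115 against 24.2, all above Imp3 at 87.3. Control cultures varied more for these genes than Folfiri cultures. The median coefficient of variation of the members was 21.1% over the controls and 4.94% over the Folfiri samples, against 7.50% and 5.20% for the 8455 genes at or above the lowest member level. Among the 50 members called higher, control replicate 1 was the highest control in 46, and its level was a median of 1.42 times the mean of the other controls.

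The summed counts of all 53 members took 0.451, 0.381 and 0.372% of all counts in the 3 control cultures, and 0.987, 1.02 and 1.04% in the Folfiri cultures. The groups did not overlap, and the mean share rose 2.53-fold, from 0.401 ± 0.0432% to 1.02 ± 0.0255% (each SD, n = 3; exact two-sided permutation p = 0.1, the smallest possible). Ncl and Npm1 took more than the other 51 members together in controls, and without them the share rose 3.93-fold, from 0.181 ± 0.0378% to 0.710 ± 0.0201% (each SD, n = 3).

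Ribosomal protein genes, whose products the biogenesis factors assemble, moved the other way. Of 79 cytosolic ribosomal protein genes tested, 75 were lower, 1 was higher and 3 did not pass the edgeR test. Over all genes tested, 38.8% were lower and 40.3% higher. With total counts, 71 of the 79 were lower and 1 higher, where 28.9% and 49.8% of all genes were. The median log2 fold change of the 79 was -0.86 with TMM factors and -0.58 with total counts. Among the largest falls were those of Rps20 at -2.11 and Rpl13a at -1.94. Many of these genes have near-identical pseudogenes, so their counts are uncertain. Their summed share was 6.74 ± 0.465% of counts in controls and fell to 4.41 ± 0.407% with Folfiri (each SD, n = 3). Per 100 counts on ribosomal protein genes, the members had 7.26, 5.39 and 5.35 counts in controls and 23.7, 24.5 and 21.3 after Folfiri, a 3.86-fold rise of the mean without overlap. Control replicate 1 was the lowest control for all 79 of these genes, and without it their median was -0.95. Without Folfiri replicate 3 the median was -0.97, and leaving out each replicate in turn moved it between -0.97 and -0.81.

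**Figure D3:**
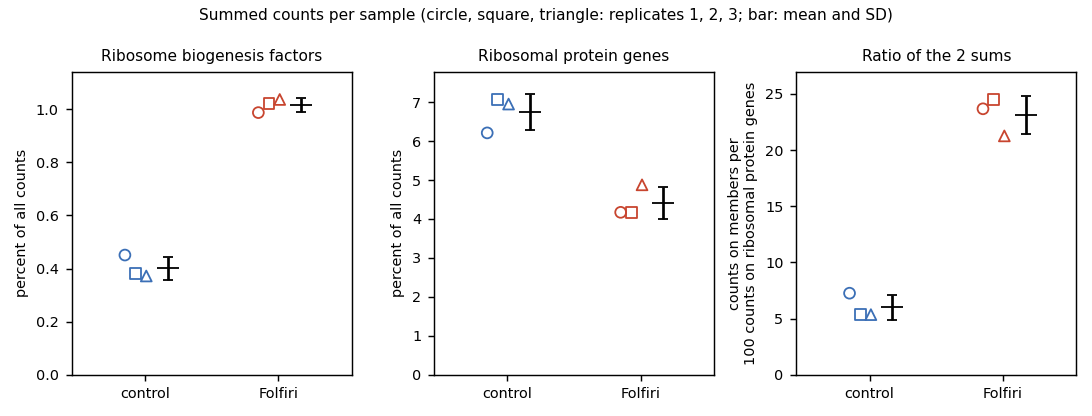
Summed counts of the 53 members and of 79 ribosomal protein genes as percent of all counts, and their ratio as counts on members per 100 counts on ribosomal protein genes, in each sample (circle, square and triangle, replicates 1, 2 and 3; bar, mean and SD of 3 samples). The member share rises from 0.401% to 1.02% on average, the ribosomal protein share falls from 6.74% to 4.41%, and the ratio goes from 6.00 to 23.1.

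The same pathway holds further genes that are not among the 53 members. Of 85 such genes, all tested, 75 were higher, 4 were lower and 6 did not pass the edgeR test. Over all genes tested, 40.3% were higher and 38.8% lower. The median log2 fold change of the 85 genes was 1.23. The largest rises were those of Urb1, a large subunit assembly factor, at 3.72 (SE 0.19, edgeR adjusted p = 3.92e-08), of Polr1g, an RNA polymerase I subunit listed as Cd3eap, at 3.0, and of Nol6, a processome protein, at 2.88. Urb1 was at 8.82, 5.24 and 4.63 CPM in controls and 81.7, 89.1 and 80.2 CPM after Folfiri, with no overlap. The 4 that fell were the large subunit factors Nop53, at -1.10 (SE 0.11, edgeR adjusted p = 4.01e-06), and Nsa2, at -0.78, the polymerase subunit Polr1d, at -0.30, and the small subunit kinase Riok1, at -0.29. With total counts, 79 of the 85 were higher and 2 lower (Nop53 and Nsa2), where 49.8% and 28.9% of all genes were.

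**Figure D4:**
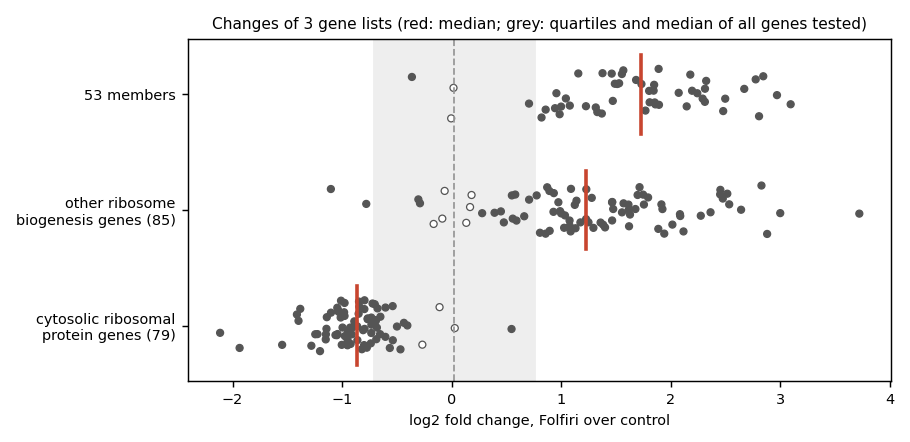
Log2 fold changes of Folfiri over control for the 53 members, 85 other ribosome biogenesis genes and 79 cytosolic ribosomal protein genes (each point 1 gene; filled, adjusted p under 0.05; red line, median of the list; grey band and dashed line, quartiles and median of all genes tested). The medians are 1.73, 1.23 and -0.86.

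Myc, a transcription factor known to activate ribosome biogenesis genes, was at 95.4, 84.8 and 73.7 CPM in controls and 288, 287 and 290.5 CPM after Folfiri. The Folfiri values were nearly equal and all above the controls, at a log2 fold change of 1.77 (SE 0.09, edgeR adjusted p = 5.57e-08). Of the 10 genes of the Myc and Max network, 9 were tested, 2 were higher and 5 lower, where 40.3% and 38.8% of all genes were, and with total counts 3 were higher and 3 lower, where 49.8% and 28.9% of all genes were. The other gene that rose was Mga, at 0.55. The largest falls in this list were those of Mxi1, a Max partner, at -1.67 (SE 0.07, edgeR adjusted p = 1.36e-08), Mxd3 at -1.27 and Mxd1 at -0.91. Mnt and Max itself were also called lower, at -0.44 and -0.36. A link between Myc and the members was not tested. Mycn was not tested because its counts were too low.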

How the data were processed

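RNA of 3 control and 3 Folfiri-treated MTO54 cultures was sequenced from poly(A)-selected libraries made with a kit that does not mark strand. The authors aligned the reads with STAR 2.5.2 to the mouse genome (GRCm38, GENCODE vM25), used Sambamba for sorting and Rsubread for counting, and deposited raw counts per gene. Strand and multiple-mapping settings are not given in the sources used here. Groups came from the sample titles. The study calls the cultures biological replicates, and p-values measure only the spread between these samples.

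The counts were analysed in R 4.3.3 with edgeR 4.0.16, using filterByExpr at default settings, TMM factors and the quasi-likelihood test over all 14692 genes kept. Genes were called at a Benjamini-Hochberg adjusted p under 0.05. The SE of a log2 fold change was derived from the test, as its absolute value over the square root of the F statistic. Levels are CPM, counts scaled to library sizes with TMM factors. Of 24190 gene identifiers, 24168 matched GENCODE vM21, of the same build, which gave symbols, positions and exon lengths, and all 53 members matched. Promoters were those of RefSeq on GRCm38.p6. Npm1, Fbl, Bop1, Rrp12, Gnl2, Tcof1 and Rrs1 had no entry in the promoter set used here. Depth was 22103591 to 30098210 counts per sample, and intervals from such counts would cover counting error only. Single values per sample were compared by exact two-sided permutation tests, which cannot go below 0.1 with 3 against 3 samples. The fit was also run on simulated counts in which most genes were unchanged. That setting differs from these data, where 79.1% of genes were called. It therefore cannot show how well the TMM scaling holds here.

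The members and the other gene lists were chosen with earlier results of these data known. Values in every sample were given for 13 members chosen for their roles, for the highest and lowest member of each role group and for called members that went against most. Of the other lists, up to 3 genes per direction were named. Results for some genes that this rule covers are left out of the text. Nop14, Imp4, Mphosph10 and genes given with a fold change alone were named beyond this rule after their values were seen. Same-numbered control and Folfiri samples did not deviate together (r = 0.03, -0.12 and 0.04), so the numbers were not taken as pairs. The alternatives included scaling by total counts, by upper quartiles or by DESeq2 size factors, other filters, the Wald test of DESeq2 1.42.0, the replicate number as a block and leaving out each replicate in turn. The ribosomal protein and Myc results under these settings and the shorter promoter window were added after seeing the data.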

Additional observations from a re-analysis of the deposited data

How the results depend on the processing

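The counts of 50 members higher and of 75 other pathway genes higher stayed within 1.5 times under every alternative run, and in each fit that left out a replicate 50 members were higher and 1 lower. With total counts only, 52 members were higher and 0 lower, the median log2 fold change of the members was 2.00, that of the other pathway genes was 1.5, and 2 of the latter were lower in place of 4. The group medians then were 1.68 for RNA polymerase I transcription, 2.44 for nucleolar and box C/D proteins, 2.06 for the SSU processome, 1.95 for late small subunit steps and 1.99 for the large subunit. Leaving out each replicate in turn moved the median of the members between 1.59 and 1.96, the highest without control replicate 1, where the medians for polymerase I transcription and nucleolar proteins were 1.63 and 2.41. Npm1 had a log2 fold change of -0.08 with total counts (edgeR adjusted p = 0.25). Emg1 was at -0.011 without the filter and at 0.29 with total counts, and leaving out each replicate moved it between -0.015 (without control replicate 1) and 0.043, with -0.014 without Folfiri replicate 3. Imp3 turned to 0.28 with total counts and 0.052 with upper quartile factors, and leaving out each replicate moved it between -0.099 and 0.053, with a positive sign without control replicates 2 and 3 (0.0098 and 0.044) and without Folfiri replicates 1 and 2 (0.053 and 0.038). The cause of these changes was not tested, except that total counts leave out the TMM factors. With the replicate number as a block, 50 members were higher and 1 lower, at a median of 1.76, and 11499 genes were called in place of 11623. The block changed no call among the members, and not every sample correlated best with its own number. DESeq2's Wald test called 50 members higher and 1 lower, where it called 65.0% of the genes it tested.

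With 3 samples a group, single comparisons cannot reach 0.05 in a permutation test. Values are relative to the other counted transcripts of each sample, so changes near 0.3 on the log2 scale depend on the scaling.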

Other observations

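Members that host snoRNA genes were found in the annotation. Of the 53 members, 6 (11.3%) had a snoRNA gene within their span on the same strand, namely Ncl, Nop56, Nop58, Wdr43, Tsr1 and Gnl3, against 224 of 12883 protein-coding genes tested (1.74%). SnoRNAs guide the modification of rRNA and are mostly released from introns, so these genes encode both a ribosome factor and a guide RNA. The median log2 fold change was 2.25 for the 6 host members, 1.73 for all 53 members and -0.10 for the 224 hosts. Of the 6, Ncl and Wdr43 rose least, at 0.96 and 0.82. Nop56, Nop58, Gnl3 and Tsr1 stood at 2.18, 2.31, 2.67 and 2.78. Short snoRNAs are poorly captured in poly(A) libraries and were not measured here.

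The rise was present in short and long members. Across the 53 genes, the Spearman correlation of log2 fold change was 0.12 with genomic span and 0.27 with exonic length, and over 14687 tested genes it was -0.01 and 0.05. These are correlations across genes of the same libraries, which are not independent replicates. The median span was 15742 bases for the members and 19266 for the genes tested. Exons of 20 members overlapped an exon of another gene on the opposite strand. Of these 20, 19 were higher, against 40.3% of all genes tested. Of the 31 members without any overlapping exon, 29 were higher and 1 lower, against 40.3% and 38.8% of all genes. The median log2 fold change of these 31 members was 1.57.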
